A study of Mus musculus with 35 samples.

Results

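The genes described here are 9 genes of the mammalian machinery for writing N6-methyladenosine (m6A): Mettl3, Mettl14, Mettl16, Wtap, Virma, Zc3h13, Rbm15, Rbm15b and Cbll1. They were chosen by name, not by their values. All 9 were found in the RNA tables, which hold 23715 gene entries in all, with genes joined in a locus counted as a single entry. Each of the 9 had a locus of its own that it shared with no other named gene. Virma is listed in the files under its older symbol 1110037F02Rik. The study examined mouse neural progenitor cell (NPC) cultures from embryos of 3 Mettl14 genotypes, wild type (WT), heterozygous for the deletion (Het) and homozygous knockout (KO), and its title names self-renewal and histone modifications as what m6A regulates there. RNA was sequenced in 3 WT, 3 Het and 3 KO libraries of batch 1 and in 2 WT and 2 KO libraries of batch 3. The m6A marks were mapped in 2 immunoprecipitates (IPs) and 2 inputs of WT cultures. Acetylation and trimethylation of histone H3 at lysine 27 (H3K27ac and H3K27me3) were mapped in 2 WT and 2 KO lines. The mutant allele was built with loxP sites around exon 2 of Mettl14 in G4 male embryonic stem cells, brought onto c57 mice, and freed of its selection cassette by an Atcb-Flpe cross. The labels describe a conventional knockout made with EIIa-Cre, which acts in the early embryo and germ line, and a brain knockout made with nestin-Cre, which acts in the neural lineage, and do not say which gave a given culture. The labels place all cultures at the embryo stage and give no day. The 4 lines used for histone marks carry the same numbers (532 and 541 for WT, 530 and 534 for KO) as the cultures of RNA batch 3.

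m6A is the most common internal modification of messenger RNA and is placed in the nucleus while RNA is being made. METTL3 carries the catalytic site and METTL14 holds the RNA and stabilises METTL3 in a tight heterodimer. WTAP brings the heterodimer to nuclear speckles, and VIRMA, ZC3H13, CBLL1 (HAKAI), RBM15 and RBM15B join it there as the regulatory part of the complex, with the RBM15 proteins binding RNA and VIRMA favouring sites near stop codons. METTL16 works apart from this complex on a small number of RNAs, among them the Mat2a messenger RNA and the U6 small nuclear RNA. In neural progenitors m6A is known to mark transcripts for timely turnover.

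Promoter windows for 7 of the 9 genes were matched in RefSeq (build GRCm38.p6, the assembly of mm10). Of these, 2 are shown. Rbm15b rose in the KO cells of both batches, and Wtap was the one gene of the set with H3K27me3 called near its start, in both KO lines. Each run is the 250 bases before a RefSeq start, 5′ to 3′ on the gene's strand (minus for both), at chr9:106887076-106887325 for Rbm15b and chr17:12992544-12992793 for Wtap. Capitals mark matches on either strand to 5 short motifs: the GC box (in the Rbm15b run it lies on the other strand), the CCAAT box, the E-box CACGTG, the TCTCGCG-type palindrome and the ETS core CCGGAAG.
Rbm15b: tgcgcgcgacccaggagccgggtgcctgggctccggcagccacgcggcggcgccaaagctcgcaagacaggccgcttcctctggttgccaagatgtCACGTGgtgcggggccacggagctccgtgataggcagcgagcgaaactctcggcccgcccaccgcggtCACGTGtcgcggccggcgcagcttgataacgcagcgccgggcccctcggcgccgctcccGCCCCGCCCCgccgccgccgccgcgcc
Wtap: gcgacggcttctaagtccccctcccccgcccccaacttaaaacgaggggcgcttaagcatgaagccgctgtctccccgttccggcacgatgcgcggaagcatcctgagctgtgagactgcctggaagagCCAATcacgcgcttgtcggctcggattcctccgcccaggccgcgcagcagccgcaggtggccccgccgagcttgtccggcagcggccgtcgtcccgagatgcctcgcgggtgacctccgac
The Rbm15b window holds 2 E-boxes and 1 GC box and is 76.0% G and C, against a median of 52.4% over the 32851 windows of the table. The Wtap window holds 1 CCAAT box and is 68.0% G and C. It lies upstream of both H3K27me3 peaks. These fall inside the window of another Wtap start (chr17:12992260-12992509), which is 80.0% G and C and is not shown. Of all windows, 6.31% hold the GC box, 6.02% the E-box, 33.8% the CCAAT box, 6.91% the ETS core and 0.39% the palindrome. Among the 7 genes the GC box was found for Rbm15b, Zc3h13 and another Wtap start, the CCAAT box for Mettl16, Rbm15 and Wtap, and the palindrome for Mettl16 and Rbm15. Mettl3 and Cbll1 held none of the 5. These matches describe letters only and are not binding sites.

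The libraries held 14087371 to 20046524 fragments each. The cultures carried the 12 neural progenitor markers examined, all detected, with summed levels of 7940 to 8460 CPM, the fragments of a gene scaled to its library's total, in the WT and 5350 to 5760 CPM in the KO libraries of batch 1. In batch 3 these sums were 7870 to 8370 CPM and 5720 to 5740 CPM. The Het libraries of batch 1 had 8380 to 9100 CPM. A few abundant genes weigh most in these sums. In batch 1 Vim reached 3990 CPM and Fabp7 2120 CPM, against at most 36.3 CPM for Pax6 and 41.0 CPM for Sox1. The sums do not show that each of the 12 markers differed. The 5 microglial markers summed to at most 1.81 CPM in any library, and the 5 endothelial markers to 2.05 to 2.68 CPM in WT and 3.4 to 5.89 CPM in KO in batch 1, and to 1.79 to 2.07 and 1.26 to 1.82 CPM in batch 3. The 5 fibroblast and pericyte markers summed to 2.26 to 2.62 CPM in WT and 11 to 12.6 CPM in KO in batch 1, and to 1.74 to 3.52 CPM and 6.61 to 11.8 CPM in batch 3. The 4 oligodendrocyte markers summed to 8.06 to 9.44 CPM in WT and 18 to 29 CPM in KO in batch 1, and to 8.03 to 8.75 and 14.8 to 15.1 CPM in batch 3. The 5 neuronal markers summed to 1090 to 1150 CPM in WT and 984 to 1170 CPM in KO in batch 1, and to 983 to 1100 and 807 to 980 CPM in batch 3. Nearly all of this was Map2, at 971 to 1220 CPM in batch 1 and 790 to 1050 CPM in batch 3. The highest value of any other neuronal marker was 25.2 CPM in batch 1 (Tubb3) and 37.5 CPM in batch 3 (Syt1). Of 4 erythroid markers 3 were in the tables, with 4.01 to 5.0 CPM in WT and 6.84 to 7.91 CPM in KO in batch 1, and 0.247 to 0.735 and 0.115 to 0.337 CPM in batch 3. The part of these differences in the results that follow was not tested. In bulk RNA, fewer cells of a type and less RNA per cell cannot be told apart. The batches were assembled and quantified separately by the authors, so levels are compared only within a batch. The series' design text calls the libraries biological replicates, and the tables do not say which library is which numbered culture.

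In the KO cells 6 of the 9 genes carried more RNA and 1 carried less. Wtap, Virma, Zc3h13, Rbm15, Rbm15b and Cbll1 rose, Mettl3 fell, and Mettl14 and Mettl16 did not pass the threshold, when KO was compared with WT over both batches with batch as a covariate (edgeR quasi-likelihood test, two-sided, Benjamini-Hochberg adjusted over 13323 genes, called at an adjusted p under 0.05). All 9 passed the low-count filter. The 7 called of 9 stand beside a very broad response, since 61.4% of all tested genes were called, 30.3% higher and 31.1% lower. The median log2 fold change was 0.38 over the 9 genes and 0.00 over all genes tested. In batch 1 alone the split was also 6 higher and 1 lower, against 69.3% called over all genes (34.3% higher, 35.0% lower). In batch 3 alone 5 were higher and 0 lower (edgeR; 6 of the 9 at an unadjusted p under 0.05, as for 43.5% of all genes), where 31.7% of genes were called, 17.3% higher and 14.4% lower. The 4 that were not called in batch 3 were Mettl3, Mettl14, Mettl16 and Wtap. The batch 3 count was 2 without either of its WT libraries, 7 without KO replicate 1 and 6 without KO replicate 2. The CPM ranges of KO and WT did not overlap in either batch for 7 of the 9 genes, 5 with KO above WT and 2 with KO below WT each time. Of 12353 genes, 50.3% had such ranges, 24.9% above and 25.4% below. Scaled also by transcript length (FPKM), the 2 genes below WT, Mettl3 and Mettl14, did not stay separate in both batches. For Mettl3 in batch 3 a KO library had 20.26 FPKM and a WT library 20.09. For Mettl14 in batch 1 a KO library had 7.98 FPKM and a WT library 7.63.

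**Figure D1:**
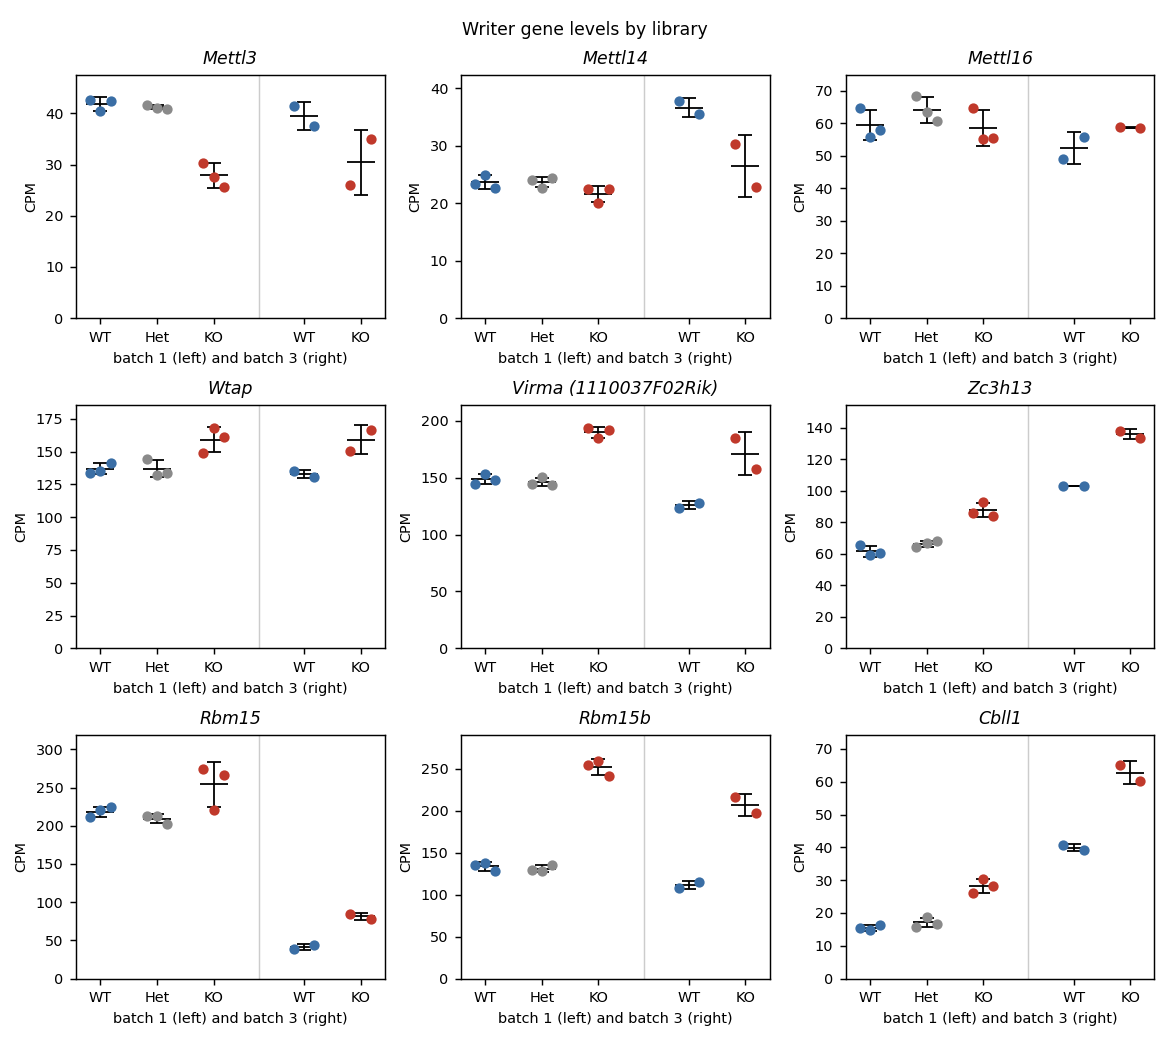
Level of each writer gene in CPM (y axis, linear from 0) in every library, by genotype within batch 1 (left of the line) and batch 3 (right). Points are libraries, and bars are the mean ± SD of a group. Rbm15b and Cbll1 show KO libraries well above WT in both batches, and Mettl3 shows them below. The Het and WT ranges overlap for all 9 genes.

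Of the catalytic pair, Mettl3 fell and Mettl14 did not pass the threshold. Mettl3, the catalytic subunit (chr14:52294842-52305124, minus strand), stood at 42.7, 40.4 and 42.4 CPM in the WT libraries of batch 1 and at 30.4, 27.5 and 25.7 CPM in the KO libraries. In batch 3 it was at 41.5 and 37.5 CPM in WT and at 25.96 and 34.92 CPM in KO. The KO libraries lay below the WT libraries in both batches, and 1 KO library of batch 3 was close to the lower WT library. Mettl3 RNA fell by 0.51 on the log2 scale over batches (SE 0.093, adjusted p = 0.000719, edgeR), to 0.703 of its WT level. The fall was 0.58 in batch 1 (SE 0.078, adjusted p = 4.55e-05) and the batch 3 value was -0.38 (SE 0.18, adjusted p = 0.153), or -0.60 with adjusted p = 0.00558 without KO replicate 2, the higher one, and -0.17 with adjusted p = 0.361 without KO replicate 1.

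Mettl14, the gene targeted in the study (chr3:123368295-123385990, minus strand), did not pass the threshold over batches. Its levels were 23.27, 24.85 and 22.57 CPM in WT and 22.43, 20.04 and 22.44 CPM in KO in batch 1, so that the groups were separate by a very small gap. In batch 3 they were 37.8 and 35.4 CPM in WT and 30.3 and 22.8 CPM in KO. The log2 difference was -0.27 over batches (SE 0.11, adjusted p = 0.0528, edgeR), close to the threshold. With the Het libraries added to the same fit, an alternative chosen after seeing the data, it was -0.24 with an adjusted p of 0.0478, by limma on log2(FPKM + 1) it was -0.25 with an adjusted p of 0.0396, and without WT replicate 3 of batch 1 it was -0.32 with 0.0421. Without KO replicate 2 of batch 3 it was -0.15 with an adjusted p of 0.12. It was -0.12 in batch 1 (adjusted p = 0.215) and -0.46 in batch 3 (adjusted p = 0.0843), or -0.68 with adjusted p = 0.00341 without KO replicate 1 and -0.26 with adjusted p = 0.158 without KO replicate 2. A locus total counts all exons, 11 in the RefSeq form, and therefore does not measure the loss of exon 2.

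The assembled transcripts of Mettl14 include forms without that exon. Exon 2 spans 89 bases at chr3:123383596-123383684, a length that leaves a remainder of 2 when divided by 3. In the batch 1 assembly 1 of 2 Mettl14 models joined exon 1 directly to exon 3. In the batch 3 assembly 3 of 4 models lacked exon 2, of which 2 joined exon 1 to exon 3 and 1 began at another first exon (chr3:123385250-123385302). The remaining model of each assembly matched the RefSeq form with all 11 exons. A model that skips the second exon of a RefSeq form was present for 5.29% of 18795 genes in batch 1 and for 5.1% in batch 3. Among the other writer genes 1 such model was found, for Virma in batch 1. Each assembly pools the libraries of its batch, so these models cannot be assigned to a genotype.

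Mettl16, the separate methyltransferase (chr11:74770863-74828830 in the batch 1 assembly, plus strand), did not pass the threshold. It stood at 64.5, 55.8 and 57.8 CPM in WT and at 64.7, 54.9 and 55.5 CPM in KO in batch 1, with overlapping ranges. In batch 3 the values were 48.9 and 55.8 CPM in WT and 58.7 and 58.5 CPM in KO. The batch 3 ranges were separate. The log2 difference over batches was 0.04 (SE 0.078, adjusted p = 0.652, edgeR). By limma on log2(FPKM + 1) Mettl16 was lower in KO in batch 1, at -0.19 with an adjusted p of 0.0481.

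Wtap, the adaptor that carries the heterodimer to nuclear speckles (chr17:12964686-12992539 in the batch 1 assembly, minus strand), rose modestly in total fragments. The WT libraries had 134, 136 and 141 CPM and the KO libraries 149, 168 and 161 CPM in batch 1. In batch 3 they had 135 and 130.4 CPM in WT and 151 and 166 CPM in KO. No KO library reached down to a WT library in either batch. The rise over batches was 1.17-fold (log2 0.23, SE 0.058, adjusted p = 0.00571, edgeR), with log2 0.22 in batch 1 (adjusted p = 0.00599) and 0.26 in batch 3 (adjusted p = 0.162; 0.33 with 0.0186 without KO replicate 1 and 0.19 with 0.142 without KO replicate 2).

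The length-scaled values gave a larger change for the same gene, log2 0.61 over batches (SE 0.11, adjusted p = 0.000633, limma on log2(FPKM + 1)). FPKM, fragments per kilobase of transcript scaled to library size, were 35.4, 38.2 and 38.4 in WT and 47.2, 64.7 and 61.3 in KO in batch 1, and 33.2 and 35.6 in WT and 47.9 and 58.6 in KO in batch 3. The number of fragments that make 1 FPKM unit grows with the length of the forms to which the authors' software assigned the fragments. Set against the median gene of each library, this number for Wtap was 1.17, 1.16 and 1.15 in WT, 1.15, 1.17 and 1.24 in Het and 0.904, 0.781 and 0.781 in KO in batch 1. In batch 3 it was 1.29 and 1.17 in WT and 0.965 and 0.917 in KO. Every KO library lay below every WT and Het library of its batch.

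A fit of this measure over all loci with a single gene name (limma, two-sided, with a batch term) called Wtap. The ratio of KO to WT was 0.73 for Wtap (log2 -0.45, SE 0.054, adjusted p = 0.00388), while 36 of 8538 genes were called, or 0.422%, and 15 of them in the direction of shorter forms, or 0.176%. No other writer gene was called. Rbm15b was at log2 0.27 (SE 0.0996, adjusted p = 0.794; 0.38 with 0.0105 without batch 3 WT replicate 2), and the remaining 7 lay between -0.15 and 0.03. Wtap was called without each of the 10 WT and KO libraries in turn, while the count of all genes called ran from 16 to 50. The measure was added after the values of Wtap had been seen.

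Assembled forms of Wtap whose introns match RefSeq differ at their 3′ end. In batch 1 the forms with 6 exons end in a last exon of 4455 bases (chr17:12971020-12975474) and have 4919 and 4967 bases in all. The forms with 8 exons read on to a later last exon. One of them ends at 12966799, the end of the RefSeq gene, and has 2051 bases, and the other runs past it to 12964686 and has 4444 bases. Further assembled models of Wtap reach 10180 bases, and which forms changed was not tested.

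**Figure D2:**
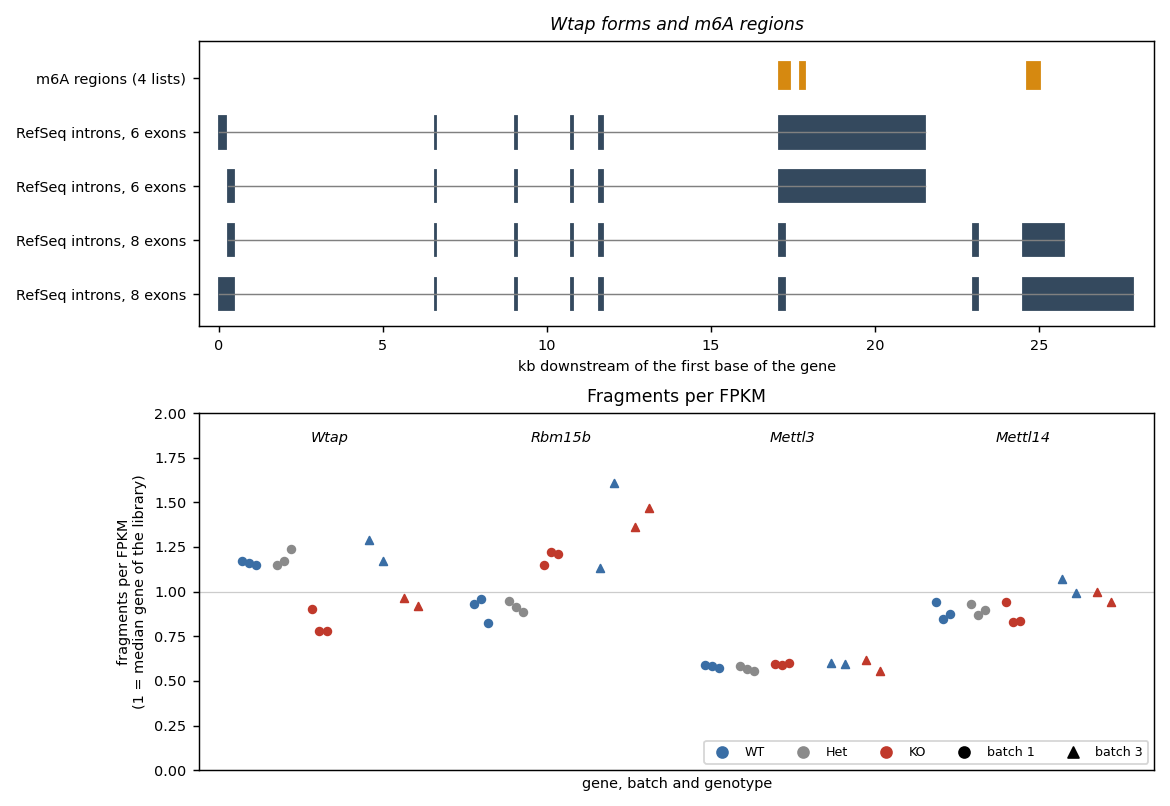
Top, the 4 forms of Wtap in the batch 1 assembly whose introns match RefSeq (boxes are exons, to scale in kb from the gene's first base) and the 3 exonic m6A regions found in all 4 lists. Bottom, fragments per FPKM relative to the median gene of a library (y axis, linear from 0) for 4 writer genes in each library. Wtap lies between 0.781 and 0.965 in KO and between 1.15 and 1.29 in WT and Het, and Mettl3 between 0.557 and 0.618 in all libraries.

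The regulatory subunits Virma, Zc3h13 and Cbll1 each rose. Virma (chr4:11485958-11551143, plus strand), the large scaffold that guides the complex towards the 3′ end of messages, had 145, 154 and 148 CPM in WT and 194, 185 and 192 CPM in KO in batch 1. It had 124 and 128 CPM in WT and 185 and 158 CPM in KO in batch 3. The groups were well apart in both batches. The rise was 1.31-fold over batches (log2 0.38, SE 0.061, adjusted p = 0.000278, edgeR).

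Zc3h13 (chr14:75284373-75344426, plus strand) keeps the complex in the nucleus. Its levels were 65.8, 59.0 and 60.8 CPM in WT and 85.8, 93.1 and 84.3 CPM in KO in batch 1, and 103 and 103 CPM in WT and 138 and 133 CPM in KO in batch 3. The ranges were separate in both, and the rise was 1.37-fold (log2 0.45, SE 0.064, adjusted p = 0.000119, edgeR). In batch 3 alone its adjusted p was 0.0387 by edgeR and 0.0521 by DESeq2. Without either WT library of batch 3, the batch 3 calls of Virma, Zc3h13 and Cbll1 were lost, with adjusted p-values from 0.0976 to 0.341 (edgeR).

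Cbll1, a RING-type protein also called HAKAI (chr12:31484829-31499616, minus strand), had the lowest FPKM of the set in batch 1 WT cells and a large rise. It went from 15.3, 14.7 and 16.2 CPM in WT to 26.1, 30.3 and 28.2 CPM in KO in batch 1, and from 40.7 and 39.1 CPM to 65.1 and 60.3 CPM in batch 3. The lowest KO value was well above the highest WT value each time. The rise was 1.71-fold over batches (log2 0.77, SE 0.083, adjusted p = 1.91e-05, edgeR).

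The paralogous RNA-binding subunits both rose, and the size of the Rbm15 rise differed between batches. Rbm15b, an intronless gene of 1 exon (chr9:106880919-106887025, minus strand), had 135, 138 and 128 CPM in WT and 254, 259.9 and 242 CPM in KO in batch 1. In batch 3 it had 108 and 115 CPM in WT and 217 and 198 CPM in KO. All KO libraries were far above all WT libraries in both batches, and the rise of 1.87-fold (log2 0.90, SE 0.059, adjusted p = 9.73e-07, edgeR) was the largest of the 9 in fragment counts over batches. The effect was log2 0.92 in batch 1 and 0.90 in batch 3, where Rbm15 was higher at 0.96. On log2(FPKM + 1) the rise of Rbm15b was smaller, 0.56 over batches (SE 0.11, adjusted p = 0.00142, limma) and 0.40 in batch 1 (adjusted p = 0.000613, limma), below 0.65 for Cbll1 and 0.61 for Wtap over batches.

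Rbm15 had 211, 220.1 and 224 CPM in WT and 274, 221 and 266 CPM in KO in batch 1, where 1 KO library lay within the WT range. In batch 3 it had 39.0 and 44.3 CPM in WT and 84.5 and 78.1 CPM in KO, with a wide gap. The rise was log2 0.22 in batch 1 (SE 0.073, adjusted p = 0.0208, edgeR) and 0.96 in batch 3 (SE 0.14, adjusted p = 0.00243, edgeR). The difference of the effects was 0.71 in the interaction fit (SE 0.15, adjusted p = 0.0134, edgeR), a call made for 14.4% of 13589 genes (7.87% with the larger value in batch 3 and 6.5% with the smaller) and for no other writer gene. The batch 1 call was lost without WT replicate 1, WT replicate 2, KO replicate 1 or KO replicate 3, with adjusted p-values between 0.0511 and 0.0818.

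The Rbm15 loci were not the same in the 2 assemblies. The batch 1 locus runs from 107303209 to 107333971 on chr3 and reaches into Slc16a4, a transporter gene on the opposite strand at chr3:107291230-107312115, while the batch 3 locus starts at 107315587, outside it. Slc16a4 itself stood at 82.6 to 95.6 CPM in WT, 87.5 to 109 CPM in Het and 103 to 135 CPM in KO in batch 1. In batch 3 it stood at 16.9 to 18.4 CPM in WT and 10.7 to 20.4 CPM in KO. Its KO libraries thus lay above its WT libraries in batch 1 and overlapped them in batch 3. The labels give no strand setting, so reads of the overlapping genes cannot be told apart in batch 1, and the part of this overlap in the Rbm15 difference was not tested.

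**Figure D3:**
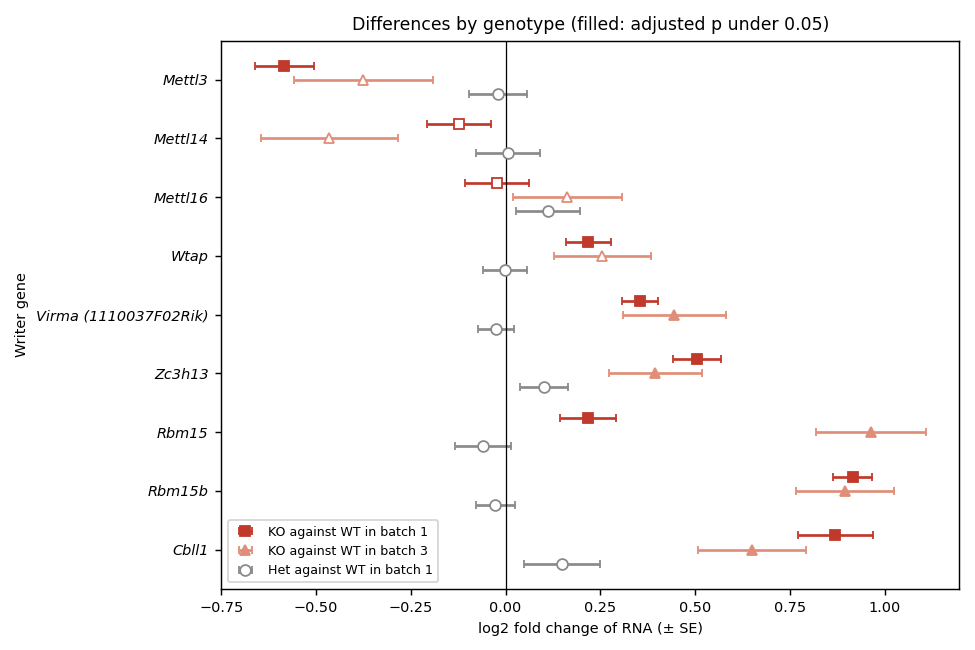
Log2 fold change of each writer gene (x axis, bars ± SE) for KO against WT in batch 1 and batch 3 and for Het against WT in batch 1. Filled symbols passed an adjusted p of 0.05. All Het values lie between -0.06 and 0.15, and Rbm15 is the gene whose KO values in the 2 batches, 0.22 and 0.96, stand furthest apart.

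For Het against WT 0 of the 9 genes were called (adjusted p between 0.674 and 0.996, edgeR), and 2 of 13677 genes were called in all, or 0.0146%. At an unadjusted p under 0.05 the counts were 0 writer genes and 8.59% of all genes, and DESeq2 called 26 genes, none of them a writer gene. The log2 differences ran from -0.06 for Rbm15 to 0.15 for Cbll1, with SEs of 0.047 to 0.1. Mettl14 itself was at 24.1, 22.6 and 24.3 CPM in Het, and its log2 difference from WT was 0.01 (SE 0.084). The Het and WT ranges overlapped for all 9 genes, while 14.8% of all tested genes had separate ranges.

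Against the Het libraries, 6 writer genes were higher and 1 lower in KO, where 68.0% of genes were called, 33.8% higher and 34.2% lower. The 2 comparisons share the KO libraries. Mettl3 fell by 0.56 (SE 0.077, adjusted p = 6.18e-05), and Rbm15b was higher by 0.94 (SE 0.051, adjusted p = 1.07e-07, edgeR). Mettl14 was at -0.13 (adjusted p = 0.191).

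Levels of different genes were compared per length, as FPKM. In batch 1 the mean FPKM in WT was 46.7 for Rbm15b, 37.4 for Wtap, 29.5 for Rbm15, 22.7 for Mettl3, 21.4 for Virma, 13.3 for Mettl16, 9.91 for Zc3h13, 8.43 for Mettl14 and 3.0 for Cbll1 (n = 3). Of neighbours in this order, Mettl3 and Virma had overlapping ranges and the others did not. In batch 3 the order was Wtap at 34.4, Rbm15b at 26.5, Mettl3 at 21.0, Virma at 17.9, Mettl16 at 12.8, Mettl14 at 11.3, Zc3h13 at 10.9, Cbll1 at 10.1 and Rbm15 at 7.69 FPKM (n = 2), with an overlap between Zc3h13 and Cbll1. Rbm15 ranked 3 of 9 in batch 1 and 9 of 9 in batch 3.

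The FPKM ratio of Wtap to Mettl3 was 1.64 ± 0.06 in WT, 1.6 ± 0.15 in Het and 4.23 ± 0.87 in KO (SD, n = 3). In batch 3 it was 1.64 ± 0.18 in WT and 3.3 ± 0.58 in KO (SD, n = 2). All KO ratios were above all WT ratios in both batches. These FPKM ratios include the lower fragments per FPKM of Wtap in KO, 0.73 of WT. In mean CPM, Wtap went from 137 in WT to 159 in KO and Mettl3 from 41.8 to 27.9 in batch 1. In batch 3 Wtap went from 133 to 159 CPM and Mettl3 from 39.5 to 30.4 CPM. The FPKM ratio of Mettl3 to Mettl14 was 2.72 ± 0.31 in WT and 1.89 ± 0.28 in KO in batch 1, but 1.86 ± 0.14 and 1.99 ± 0.85 in batch 3, where the ranges overlapped.

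Exonic m6A peaks were found at all 9 genes in WT cultures, and in all 4 lists at 6 of them. Each list sets 1 of the 2 IPs against 1 of the 2 inputs, so the lists are not independent, and a peak was counted where it covers at least 1 base of a RefSeq exon. The 6 genes with peaks in every list were Wtap, Virma, Zc3h13, Rbm15, Rbm15b and Cbll1, the ones that rose in KO cells. At a −log10 q of at least 5 this did not hold for Virma and Cbll1. In 1 list their strongest peaks had 4.16 and 4.23, and in another Virma had 4.41 and Cbll1 5.1. Over all lists they reached 5.68 and 5.67. Mettl3 had peaks in the 2 lists of one IP, Mettl16 in the 2 lists of the other IP, and Mettl14 in 1 list. Of all tested genes with exons, 42.4% had peaks in all 4 lists, 24.4% in 1 to 3 and 33.2% in none. m6A maps of KO cultures were not analysed here.

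Rbm15b carried 1 region of 1959 bases (chr9:106884163-106886121) in its only exon, with a fold enrichment over input of 2.89 to 3.89 across lists. Rbm15 carried 4 regions in all lists, of which 3 lie in its long first exon and 1 in its second, the widest at chr3:107330909-107332545. Cbll1 carried a region of 939 bases in its last exon (chr12:31487266-31488204, fold 4.28 to 5.41). Zc3h13 had 10 regions spread over exons 1 to 19, of which 4 were in all lists, the strongest in exon 9 (chr14:75321625-75321958, fold 4.84 to 5.44). Virma had 4 regions, of which 1 of 849 bases in exon 8 of 25 was in all lists (chr4:11513193-11514041, fold 3.66 to 4.96).

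Wtap carried 3 regions, each in all 4 lists. Those at chr17:12974692-12974833 (fold 3.98 to 5.69) and chr17:12975132-12975485 (fold 3.18 to 4.41) lie in the long last exon of the 6-exon forms, and the latter also covers exon 6 of the 8-exon forms. The one at chr17:12967510-12967926 (fold 3.17 to 4.06) lies in the last exon of the 8-exon forms. The region at chr17:12974692-12974833 had the highest −log10 q of any region in the set, 12.7. The peak of Mettl3 covered 82 bases of its first exon (chr14:52304947-52305028, fold 4.3 to 4.43), and that of Mettl14 129 bases of its first exon (chr3:123385827-123385955, fold 4.15, −log10 q 1.86). Mettl16 had a region in its last exon (chr11:74817429-74817615, fold 2.42 to 2.97).

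**Figure D4:**
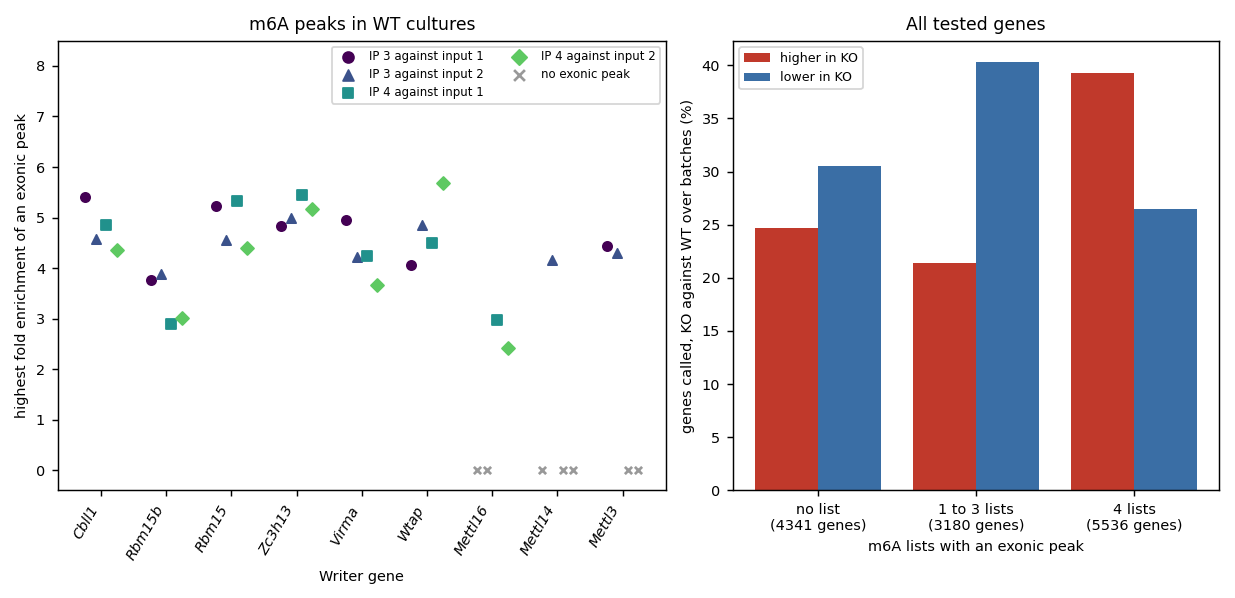
Left, the highest fold enrichment of an exonic m6A peak at each writer gene in each of the 4 lists of WT cultures (crosses at 0, no peak). Right, the percentage of tested genes called higher or lower in KO over batches, by the number of m6A lists with an exonic peak; genes with peaks in 4 lists were called higher in 39.3% and lower in 26.5%, against 24.7% and 30.5% with none.

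Over all tested genes the direction in KO also differed by m6A class. Of 5536 genes with peaks in all 4 lists, 39.3% were called higher in KO and 26.5% lower over batches, with a median log2 fold change of 0.11. Of 4341 genes with no peak, 24.7% were higher and 30.5% lower, with a median of -0.03. Of 3180 genes with peaks in 1 to 3 lists, 21.4% were higher and 40.3% lower. The median WT level was 43.2 CPM in the first class, 7.99 CPM in the second and 35.8 CPM in the third, so these classes also differ in abundance, whose part in the difference was not tested. The 6 writer genes that rose are among the 2176 genes of the first class that were called higher.

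At their start sites all 9 genes carried H3K27ac, the mark of active promoters, in all 4 lines, within 1000 bases of a RefSeq start. This was so for 85.7% of 13057 tested genes. Mettl3 had fold enrichments over input of 8.22 and 9.62 in the WT lines and 7.71 and 9.02 in the KO lines. Rbm15b had 10.9 and 8.0 in WT and 8.92 and 10.8 in KO. Wtap had the highest value of the set in every line, at 11.7 and 17.6 in WT and 11.4 and 15.6 in KO. Over the 9 genes the median was 10.4 and 9.2 in the WT lines and 8.3 and 10.8 in the KO lines, against 7.04, 7.14, 6.79 and 8.21 for all tested genes with a peak. The WT and KO ranges overlapped for each of the 9 genes. The share of all tested genes with such an overlap is not given here, and overlap between so few lines does not show equal acetylation. With 2 lines a genotype no test was made.

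**Figure D5:**
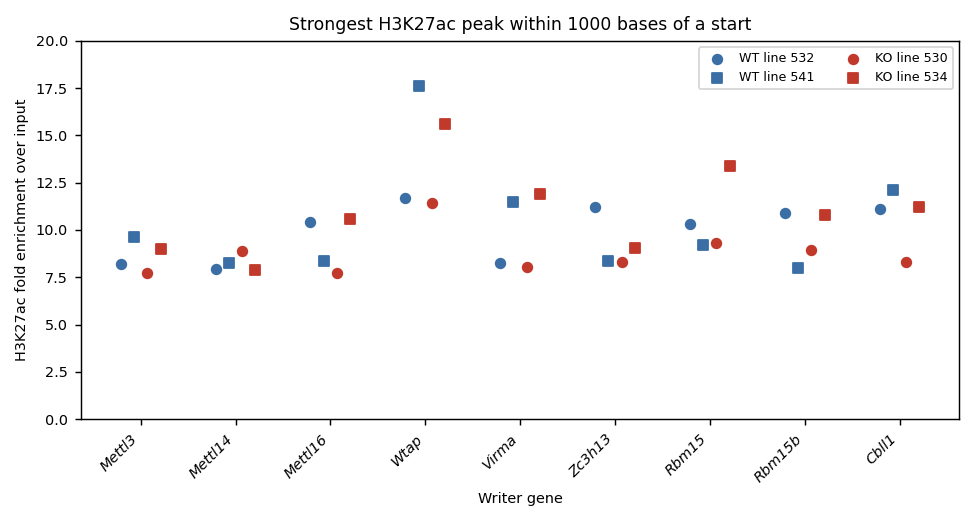
Fold enrichment over input of the strongest H3K27ac peak within 1000 bases of a start (y axis, linear from 0) at each writer gene in 2 WT and 2 KO lines. The lines of the 2 genotypes overlap at every gene, between 7.71 and 17.6.

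H3K27me3, the mark of Polycomb repression, was absent from the list at the start of 8 of the 9 genes in every line, as at 80.2% of tested genes. The start of Wtap carried a called peak in both KO lines and in neither WT line, at chr17:12992311-12992492 with a fold of 3.32 (−log10 q 2.96) and at chr17:12992289-12992473 with a fold of 3.43 (−log10 q 3.1). This pattern was found at 1.22% of tested genes and the reverse one at 0.62%. The peaks begin 47 and 66 bases downstream of the assembled start, and lie inside the H3K27ac peak of the same lines. The H3K27me3 lists held 58863 and 33188 peaks in the WT lines and 43186 and 59561 in the KO lines. Neither peak at the start of Wtap reaches a −log10 q of 5. A further stretch inside Wtap was called in 1 WT line (chr17:12975017-12975232, fold 5.0) and in 1 KO line (chr17:12975041-12975312, fold 3.59). Depth behind the peak lists is unknown.

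Over 4 lists of other m6A genes, 6 of 21 tested genes were higher and 7 lower over batches, with a median log2 fold change of -0.10. These counts are close to the shares over all tested genes, 30.3% higher and 31.1% lower. Of 13 readers, proteins that bind m6A or respond to it, 11 were tested over batches, with 4 higher, 4 lower and 3 not called, beside the 61.4% called over all genes. The YTH-domain readers Ythdf1, Ythdf2, Ythdf3 and Ythdc1 rose, with log2 fold changes of 0.89, 1.16, 0.32 and 0.63 (SE 0.086, 0.067, 0.062 and 0.059; adjusted p at most 0.00108, edgeR), and Ythdc2, an RNA helicase with a YTH domain, was at -0.17 (adjusted p = 0.105). The rise of Ythdf1 was 0.71 in batch 1 and 1.16 in batch 3, and the effects differed in the joint fit of both batches by 0.41 (SE 0.12, adjusted p = 0.0433, edgeR interaction test). Ythdf2, which brings marked RNA to deadenylation, went from 164 ± 8.3 to 343 ± 9.2 CPM in batch 1 (SD, n = 3) and from 113 ± 6.6 to 284 ± 13 CPM in batch 3 (SD, n = 2). Igf2bp2, Igf2bp3, Hnrnpa2b1 and Fmr1 fell, by 0.68, 0.18, 0.56 and 0.27 on the log2 scale (adjusted p at most 0.0262, edgeR). In batch 3 alone Ythdf3, Igf2bp3, Hnrnpa2b1 and Fmr1 were not called (adjusted p = 0.125, 0.447, 0.156 and 0.0858, edgeR). Of the 2 erasers, the demethylase gene Fto was higher by 0.23 (SE 0.060, adjusted p = 0.00633, edgeR), and Alkbh5 was at -0.02 (adjusted p = 0.849). Fto was not called in batch 3 alone (adjusted p = 0.266, edgeR).

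Of 3 genes that make the methyl donor S-adenosylmethionine or clear its by-product, 2 fell, where 31.1% of all tested genes were lower. Mat2a, the catalytic subunit of the synthetase and a target of METTL16, had 265 ± 22 CPM in WT and 126 ± 7.0 CPM in KO in batch 1 (SD, n = 3), and 348 ± 44 and 201 ± 18 CPM in batch 3 (SD, n = 2). It fell by 0.96 over batches (SE 0.083, adjusted p = 4.69e-06, edgeR). Ahcy, which clears the by-product S-adenosylhomocysteine, fell by 1.14 (SE 0.16, adjusted p = 0.000104, edgeR). The Ahcy fall was 1.48 in batch 1 and 0.62 in batch 3, and the difference in a joint fit of both batches was 0.82 (SE 0.19, adjusted p = 0.0193, edgeR interaction test). Mat2b was at -0.10 (adjusted p = 0.36). Of 5 other adenosine methyltransferase genes and partners, Pcif1 was higher by 0.42 (adjusted p = 0.00124, edgeR) and Mettl5 fell by 0.30 (adjusted p = 0.02, edgeR). Trmt112, Zcchc4 and Mettl4 were not called. In batch 3 alone neither Pcif1 (adjusted p = 0.232, edgeR) nor Mettl5 (adjusted p = 0.0988, edgeR) was called.

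Across the 13 libraries, after each batch was centred, the genes whose log2 CPM most resembled Mettl3 were Rpp30, Ppid and Psmb6, with Pearson r of 0.984, 0.982 and 0.98 among 13726 genes. Those nearest to Mettl14 were Mdm4, Ubr3 and A230046K03Rik (0.945, 0.937 and 0.934), and those nearest to Wtap were Itfg3, 1190002N15Rik and Tex264 (0.982, 0.973 and 0.967). Within the set Zc3h13 and Cbll1 were the closest pair at 0.978, followed by Virma and Rbm15b at 0.969, and Mettl3 ran opposite to Virma at -0.947. Mettl3 and Mettl14 gave 0.362. These r values are descriptions over libraries that share batches and include the difference between genotypes.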

How the data were processed

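RNA, m6A and histone data of cultured mouse NPCs were used in 13 RNA libraries, 4 m6A peak lists and 8 histone peak lists. Per the file headers, the authors deposited raw fragment numbers per assembled locus, which are estimated counts (5.31% of values in batch 1 and 2.31% in batch 3 were not whole within 1e-09), and FPKM, which the authors normalized by length and library. The submitters' processing notes name TopHat2 2.1.0, Cufflinks and Cuffdiff, with Bowtie2 2.3.1 and MACS2 for peaks, on mm10. The deposited peak lists give a fold enrichment (a ratio) and a −log10 q per peak, called per sample against an input; these are the authors' values. The deposited score of a peak, a rescaled −log10 q, was not used. The deposited table of batch 2 is identical to that of batch 1, so its 6 libraries were not analysed here.

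Counts were rounded and summed by gene symbol; loci without a known gene (1.46% and 0.42% of fragments) were left out. edgeR 4.0.16 used TMM scaling (factors 0.972 to 1.04), filterByExpr and quasi-likelihood fits in robust mode; adjusted p-values are from it unless limma 3.58.1 or DESeq2 1.42.0 is named. SE is the log2 fold change over the square root of F. CPM uses the TMM factors, except for the cell type markers, which are scaled to the library total alone. Fits were tested on simulated counts with 100 genes changed at each of 2 fold sizes. Over batches (13323 genes) the share recovered was 55% at 1.5-fold and 89% at 2-fold. In batch 3 (12836 genes) it was 16% and 71%. Far fewer genes were changed in the simulation than were called in the data, so these shares need not hold for the data.

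The 9 genes, the pathway and marker lists, the tests and the motifs were chosen with earlier results of these data known. Besides the 9, the text names the genes of the pathway list and the 3 genes nearest in pattern to Mettl3, Mettl14 and Wtap, and Slc16a4, which was chosen after its values were seen. Alternatives were other scalings, tools, filters and units, single-gene loci and leaving out each library; adding the Het libraries to the fit and the fragments-per-FPKM measure, taken for loci with at least 100 fragments in every library, were chosen after seeing the data.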

Additional observations from a re-analysis of the deposited data

Results flagged for a closer look

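The KO effect on Rbm15 differed between the batches. It was log2 0.22 in batch 1 and 0.93 in batch 3 in the joint fit, a difference of 0.705 (SE 0.15, adjusted p = 0.0134, edgeR interaction test over 13589 genes). DESeq2 gave 0.69 (adjusted p = 0.00119), and edgeR with DESeq2 size factors 0.69 (adjusted p = 0.0162). Rbm15 was called higher in KO in both batches, with 1 KO library of batch 1 inside the WT range. The assembled locus of Rbm15 also differed between the batches, and reached into Slc16a4 in batch 1. Its part in the difference was not tested, and neighbours of the other writer genes are not described here.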

How the results depend on the processing

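Over batches, the count of genes called for KO against WT was 6783 to 8568 under all settings that kept the batch term and all libraries, and 4767 without the batch term, which called 4 writer genes and not Zc3h13, Rbm15 or Cbll1. With library totals as the only scaling, the split was 4504 higher and 3677 lower over batches and 5200 and 4274 in batch 1, with 7 writer genes called in each, 6 of them higher. By limma on log2(FPKM + 1) it was 3020 and 3803 over batches. In batch 3 limma called 2 writer genes on log2(FPKM + 1) and 2 on log2(FPKM + 0.1). Leaving out each library in turn gave 2082 to 5645 genes and 2 to 7 writer genes in batch 3, 0 to 17 genes for Het against WT (17 without WT replicate 1) and 16 to 50 for fragments per FPKM. DESeq2 called 26 genes for Het against WT.

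The sign changed for 4 of the 9 genes in some settings. Mettl16 over batches became -0.01696 and -0.01921 by limma on FPKM with pseudocounts 1 and 0.1, and ran from -0.001582 to 0.1086 without single libraries. In batch 1 Mettl16 became 0.05303 with library totals, and ran from -0.1052 to 0.044 without single libraries. For Het against WT, Mettl3 became 0.03951 and 0.04102 by limma on FPKM. Wtap became 0.001253 with DESeq2 size factors, 0.001118 with DESeq2, 0.01448 with library totals and 0.001468 without the low-count filter. Leaving out single libraries gave -0.04188 to 0.022 for Wtap and -0.02364 to 0.04615 for Mettl14 there. The count of writer genes with H3K27me3 near a start was 0 at a −log10 q of at least 5 and 5 within 5000 bases. The cause of these changes was not tested. No paired analysis was possible because the RNA tables carry no culture numbers and no number is shared between WT, Het and KO groups. Fits that leave a group with 1 library assume that it varies like the others. Batch 3 has 2 libraries a genotype, which limits its precision.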
